A study of Homo sapiens with 19 samples.

Results

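miR-7704 is a human miRNA of the HOXD region, and it was followed here through the cells and culture medium of Caco-2, an established line of human colorectal epithelium. It was 1 of 1043 mature miRNAs listed in the count files, taken by its name hsa-miR-7704, and it was chosen by its share of counts, which earlier results of these data had shown to be high in pellets and low in a supernatant. Its levels are therefore given as a description, with no test. All cells carried the label WT for genotype and had reached 80% confluence before 24 h in medium free of serum and antibiotics. After removal of debris, medium of these cells gave 4 extracellular groups. S100 was the supernatant left by a spin at 100000 xg (4 libraries, 3 used), P100 the pellet of that spin (n = 4), P40 the pellet of the preceding spin at 40000 xg (n = 4) and total exRNA the unfractionated medium (n = 4). Cell lysate was the RNA of the cells themselves (n = 3). Nucleic acids of S100 and total exRNA were precipitated before Trizol, whereas P100, P40 and lysate were taken up in Trizol directly, so fraction and preparation cannot be told apart wherever these kinds of group are compared. No label states that replicates were separate cultures, and the spread between libraries may be technical.

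A miRNA is cut from a hairpin transcript and guides an Argonaute protein to messenger RNAs that pair with its seed, bases 2 to 8 from its 5′ end. Extracellular miRNAs occur inside vesicles, which sediment in high-speed spins, and bound to proteins outside vesicles, many of which stay in solution. Small RNA libraries can also hold fragments of longer transcripts that match an annotated miRNA, and a count table does not separate these from a processed miRNA.

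The sequences of miR-7704 were taken from RefSeq (GRCh38.p14), with the mature form shown first, its seed in capitals, and then the hairpin, with the mature bases in capitals.
hsa-miR-7704: cGGGGUCGgcggcgacgug
MIR7704: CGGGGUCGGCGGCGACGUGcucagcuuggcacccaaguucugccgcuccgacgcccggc
The hairpin lies at chr2:176188843-176188901 on the plus strand and the mature form, its first 19 bases, at chr2:176188843-176188861. All 59 bases fall inside exon 1 of HOXD1, within the coding part at chr2:176188802-176189453 and on the same strand. HOXD1 encodes a homeobox transcription factor. On the opposite strand the hairpin also lies within exon 1 of a transcript of HAGLR, a long noncoding RNA. Of 206694 annotated transcripts searched, the mature sequence was found on the same strand in 2, HOXD1 and MIR7704, and on the opposite strand in HAGLR. Whether counting used strand is not given in the sources used here, so reads of the miRNA, of HOXD1 messenger RNA and of HAGLR cannot be told apart. Nuclear and mitochondrial ribosomal RNA sequences were not analysed here.

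No other of the 2370 mature miRNAs in the reference table had the seed of miR-7704. The longest run of bases shared with another counted miRNA was 9, in miR-4741 and miR-4745-3p. These are shown because reads could in principle be exchanged through such runs, which are in capitals, and they were singled out after their counts were seen.
hsa-miR-4741: cgggcuguccggaGGGGUCGGCu
hsa-miR-4745-3p: uggccCGGCGACGUcucacgguc
No library held more than 4 counts of miR-4741 or 6 counts of miR-4745-3p. With 84.2% G and C over 19 bases, miR-7704 was among the most GC-rich miRNAs of these libraries. The median over the 933 counted miRNAs with a reference sequence was 54.5%, and 19 of them exceeded miR-7704. For contrast, the leading miRNA of S100 and that of the other groups are shown with their seeds in capitals.
hsa-miR-22-3p: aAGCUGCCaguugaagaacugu
hsa-miR-92a-3p: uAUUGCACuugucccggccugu
Their G and C contents are 45.5% and 54.5%.

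The 18 libraries used held 10017 to 225290 counts, and depth went with group: 198878 to 225290 in S100, 10017 to 27027 in P100, 10490 to 26096 in P40, 34427 to 61622 in total exRNA and 37453 to 157051 in lysate. S100 replicate 1 held 48 counts and none of miR-7704, which allows a share of up to 6.25% when 3 counts are taken as the limit, and it was left out. The 8 epithelial markers of the list (miR-200 family, miR-192-5p, miR-194-5p and miR-215-5p) were all detected in each group. They summed to 2.59% to 2.95% of counts in S100, 2.97% to 4.37% in P100, 3.66% to 4.27% in P40, 4.45% to 5.40% in total exRNA and 4.31% to 5.56% in lysate. The mesenchymal, neural, liver and muscle lists each stayed at or below 0.355% of any library used.

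miR-7704 was a minor miRNA of the final supernatant and a leading one of every other group. In S100 replicates 2, 3 and 4 it made up 0.114%, 0.179% and 0.188% of all counts, from 226, 403 and 410 counts. In P100 replicates 1 to 4 it made up 11.6%, 14.8%, 18.4% and 14.7%, from 2089, 3448, 4975 and 1469 counts. The P100 libraries lay far above those of S100, with no overlap, although each P100 library was sequenced at a fraction of the S100 depth.

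In P40 replicates 1 to 4 the share was 10.6%, 11.0%, 4.11% and 4.32%, from 1524, 2092, 1072 and 453 counts. P40 fell into a high pair and a low pair, and each P40 library lay below each P100 library. In total exRNA replicates 1 to 4 it was 14.9%, 4.08%, 11.8% and 6.47%, from 5715, 2517, 5803 and 2227 counts. Total exRNA spanned most of the range of the pellets and overlapped both. In cell lysate replicates 1 to 3 it was 4.52%, 1.81% and 1.98%, from 1694, 2845 and 1307 counts. Lysate replicate 1 was the high one and reached into the range of P40 and total exRNA.

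Exact 95% binomial intervals, which cover counting error only, were narrow beside these differences. The widest relative to its share was that of S100 replicate 2, 0.0993% to 0.129%, and that of P100 replicate 1 ran from 11.1% to 12.1%. The high and low libraries of P40, total exRNA and lysate therefore differed by more than counting error.

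**Figure D1:**
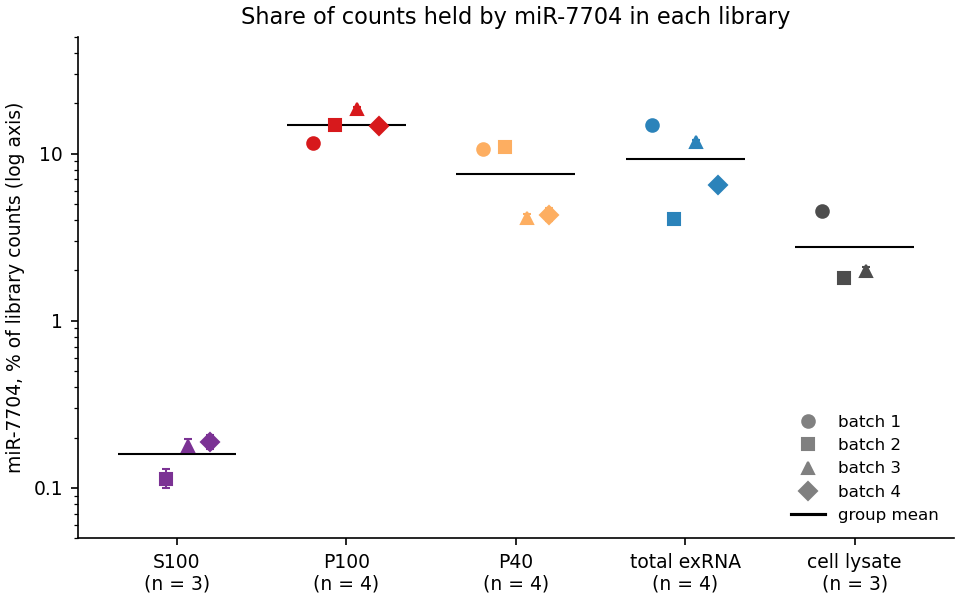
Share of all counts held by miR-7704 (log axis, percent) in each of 18 libraries, by group, with exact 95% binomial intervals as error bars, batch numbers as symbols and group means as lines. The 3 S100 libraries lie at 0.114% to 0.188%, while the 15 other libraries lie at 1.81% to 18.4%.

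Over libraries the mean share and its SD were 0.160% ± 0.0404 for S100, 14.9% ± 2.79 for P100, 7.50% ± 3.80 for P40, 9.31% ± 4.92 for total exRNA and 2.77% ± 1.52 for lysate, with n = 3 in S100 and lysate and n = 4 elsewhere. From high to low the order was P100, total exRNA, P40, lysate and S100. Neighbours in it overlapped except for lysate and S100. The highest share was 1.59 times the lowest within P100 and 3.64 times the lowest within total exRNA. Since these are shares of counted miRNA, they do not give the amount of miR-7704 in a fraction.

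By rank, miR-7704 came 64th to 87th in the S100 libraries, 2nd in all 4 P100 libraries, 2nd or 4th in P40, 1st to 5th in total exRNA and 3rd to 13th in lysate. In total exRNA replicate 1 it was the most abundant miRNA of the library, with 5715 counts against 5403 of miR-92a-3p. miR-92a-3p, a member of the growth-promoting miR-17/92 cluster family, led the mean shares of P100 (24.1% ± 1.92), P40 (19.9% ± 4.72), total exRNA (12.2% ± 2.08) and lysate (28.9% ± 4.44). Directly below miR-7704 in P100 stood miR-373-3p, a miRNA of embryonic stem cells, at 3.79% ± 0.517 (SD, n = 4). The distance was small in P40, where miR-373-3p held 5.62% ± 0.890, and in total exRNA, where it held 6.35% ± 1.88.

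In lysate miR-7704 was 6th by mean share, between miR-93-5p (3.67% ± 1.04) and miR-25-3p (2.64% ± 0.251), both of the miR-17/92 family of clusters. In S100 it was 76th of 858 miRNAs, between miR-574-5p (0.168% ± 0.0469) and miR-106b-3p (0.151% ± 0.0421). The leading miRNA there was miR-22-3p at 11.2% ± 1.89 (SD, n = 3). The distance to the miRNA ranked directly below exceeded the spread between replicates in P100 alone.

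**Figure D2:**
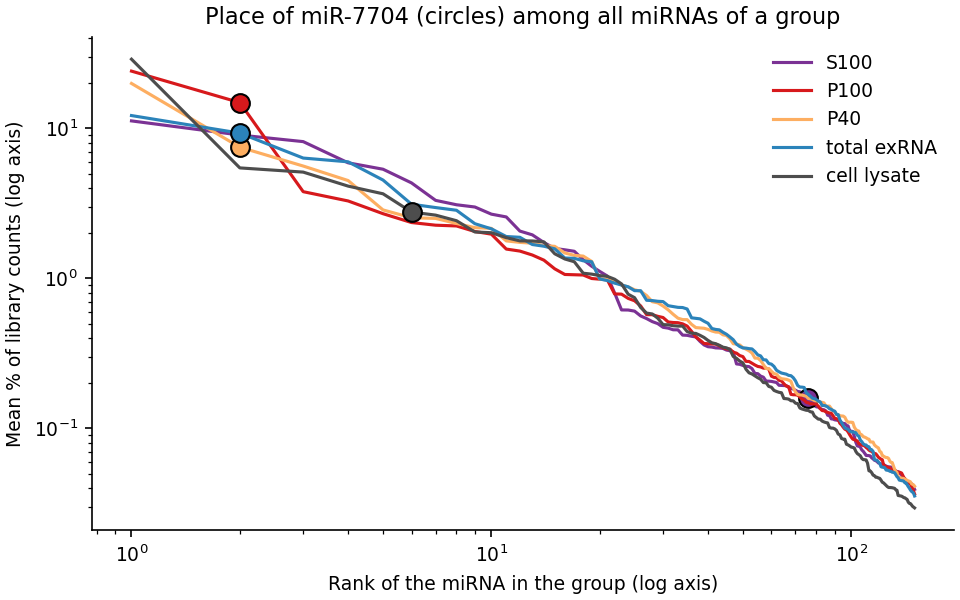
Mean share of counts (log axis, percent) against rank (log axis) for the 150 most abundant miRNAs of each group, with miR-7704 as a circle on the curve of its group. miR-7704 stands at rank 2 in P100, P40 and total exRNA, at rank 6 in lysate and at rank 76 in S100.

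Differences between groups were also estimated from 1 model of all 5 groups with TMM scaling, which sets libraries to a common scale from the miRNAs they share, and are given as log2 fold changes with SE and no p. S100 stood apart in each comparison. Its log2 fold change against P100 was -6.59 ± 0.64 (1662 ± 495 TMM-scaled CPM, SD, n = 3, in S100 and 159772 ± 40446, n = 4, in P100). That was the 4th largest difference by size of the 227 miRNAs in the fit. By size, miR-7704 ranked 6th in S100 against P40 and against total exRNA, and 28th in S100 against lysate. In comparisons without S100 it ranked from 51st (P100 against lysate) to 167th (P40 against total exRNA). The S100 libraries were all lower than the P100 libraries, which was so for 32.6% of the 227 miRNAs. Without the filter on low counts the log2 fold change was -5.92. S100 was also below P40 (log2 fold change -5.40 ± 0.60), total exRNA (-5.74 ± 0.62) and lysate (-4.34 ± 0.58), again with no overlap of shares. Shares were that way for 28.6% of miRNAs against P40, 33.5% against total exRNA and 27.8% against lysate. Without lysate replicate 1 the log2 fold change of S100 against lysate was -3.29.

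Within batches, which the labels number as they do replicates, the share in S100 was 0.00767 to 0.0128 times that in P100 of the same batch in 3 of 3 batches. It was 0.0103 to 0.0435 times that in P40 (3 of 3), 0.0152 to 0.0290 times that in total exRNA (3 of 3) and 0.0627 to 0.0903 times that in lysate (2 of 2). The S100 libraries were thus low in every batch that had one. Where the shares of 2 groups do not overlap, as here, any pairing of libraries gives the same direction, so such batch counts add no support.

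In each of the 3 batches with a lysate library both pellets held a larger share than lysate. P100 exceeded lysate by a log2 fold change of 2.25 ± 0.51, and its share was higher in 3 of 3 batches, by 2.56 to 9.29 times. The shares of P100 and lysate did not overlap, and P100 shares lay entirely above lysate for 20.7% of miRNAs. P40 exceeded lysate by 1.06 ± 0.49 on the log2 scale and in 3 of 3 batches, by 2.07 to 6.07 times, but P40 replicates 3 and 4 (4.11% and 4.32%) lay below lysate replicate 1 (4.52%). Lysate replicate 1 moved both values. Without it the log2 fold change was 3.06 for P100 and 1.80 for P40.

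Between the pellets, P100 exceeded P40 by a log2 fold change of 1.19 ± 0.45, in 4 of 4 batches. P100 shares lay entirely above those of P40 for 4.41% of miRNAs, miR-7704 included. The separation was narrow, since the lowest P100 library had 11.6% and the highest P40 library 11.0%. By batch, P100 held 1.09 to 4.48 times the share of P40.

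Unfractionated medium stood between the pellets. The share in total exRNA was higher than in lysate in 3 of 3 batches, by 2.25 to 5.96 times, with a log2 fold change of 1.40 ± 0.50 (2.16 without lysate replicate 1). P100 was above total exRNA in 3 of 4 batches (log2 fold change 0.85 ± 0.44) and P40 below it in 3 of 4 (-0.34 ± 0.44). The last of these turned to 0.06 without total exRNA replicate 1. Shares overlapped in all 3 of these comparisons. These comparisons share groups with each other and are not independent.

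The miRNAs whose level across the 18 libraries was most like that of miR-7704 were found by Pearson correlation of log2 CPM, as a description with no p. The points are libraries of 5 groups with shared depth and scaling, so the S100 libraries weigh heavily. The median over 226 other miRNAs was -0.03, and 4 exceeded 0.8. They were miR-4485-3p (0.964), miR-486-5p (0.955), miR-3195 (0.894) and miR-3651 (0.851), followed by miR-30d-5p (0.788). Over the 15 libraries outside S100 the values were 0.851, 0.777, 0.880, 0.591 and -0.260 in the same order. For miR-30d-5p, the likeness thus came from its low level in S100 alone.

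miR-4485-3p, whose hairpin matches mitochondrial 16S ribosomal RNA, followed miR-7704 most closely, also in deviations from the group means (0.903). It made up 0.000503%, 0.00133% and 0.00412% of S100 replicates 2 to 4, from 1, 3 and 9 counts. It made up 1.68%, 1.44%, 1.44% and 1.158% of P100 replicates 1 to 4, and 1.25%, 1.27%, 0.832% and 0.477% of P40 replicates 1 to 4. In total exRNA it held 0.580%, 0.169%, 0.452% and 0.259%, and in lysate 0.192%, 0.0452% and 0.0606%. Within P40, total exRNA and lysate, the libraries high in miR-7704 were those high in miR-4485-3p, and lysate replicate 1 was the high lysate library of both. Within P100 this was not so, since replicate 1 was the lowest in miR-7704 and the highest in miR-4485-3p. By the quasi-likelihood F test of edgeR, adjusted over all 227 miRNAs by Benjamini-Hochberg, it was lower in S100 than in P100 (log2 fold change -9.38 ± 0.84, adjusted p = 2.12e-08) and higher in P100 than in lysate (3.70 ± 0.63, adjusted p = 0.000101). P100 and P40 differed by 0.78 ± 0.50 (adjusted p = 0.355). Since miR-4485-3p was picked for its likeness to miR-7704, these tests add no independent support to the pattern of miR-7704.

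miR-3651, whose hairpin overlaps a small nucleolar RNA, was highest in P100, as miR-7704 was, with 0.421%, 0.525%, 0.488% and 0.559% in replicates 1 to 4. It differed from miR-7704 in total exRNA, where its 0.0581% to 0.114% overlapped the 0.109% to 0.120% of lysate at the top and otherwise lay below it. miR-3195 had at most 72 counts in a library and none in S100 replicate 4. miR-486-5p, an abundant miRNA of red blood cells, had 0.00133% to 0.00402% in S100, 0.0998% to 0.172% in P100, 0.0763% to 0.271% in P40, 0.0726% to 0.211% in total exRNA and 0.0388% to 0.0439% in lysate. The blood list of 5 markers, which includes it, summed to 0.00710% to 0.0119% in S100, 0.140% to 0.277% in P100, 0.268% to 0.343% in P40, 0.0900% to 0.229% in total exRNA and 0.0401% to 0.0439% in lysate. Of the list 4 were detected in S100, 4 in P100, 4 in P40, 5 in total exRNA and 3 in lysate. miR-451a and miR-223-3p were at 0 in lysate, miR-142-3p at 0 in both pellets and miR-150-5p at 0 in S100. The sum of the blood list was thus lowest in S100 and higher in the pellets, as miR-7704 was, but its members did not all go that way. Of the 2 that passed the filter on low counts, 1 was called higher and 1 lower in S100 than in lysate by the same test. Over all 227 miRNAs 32.2% were called higher and 30% lower there. The 1 called higher, miR-451a, was absent from lysate and so could not be lower in S100. Both were called lower in S100 than in P100, as were 31.3% of miRNAs, and higher in P100 than in lysate, as were 16.7%. With mean log2 CPM of 6.48 (miR-451a) and 5.84 (miR-486-5p) in S100, both passed the filter through other groups, which limits these counts. The part of blood markers in the pattern of miR-7704 was not tested.

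At the other end, miR-22-3p (-0.925), miR-378a-3p (-0.921) and miR-1228-5p (-0.912) ran opposite to miR-7704. miR-1228-5p had 113, 225 and 75 counts in S100 replicates 2 to 4, 1 count in lysate replicate 3 and none in the other 14 libraries. miR-378a-3p made up 5.17% to 5.58% of S100 libraries and 0.505% to 1.66% of all other libraries.

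**Figure D3:**
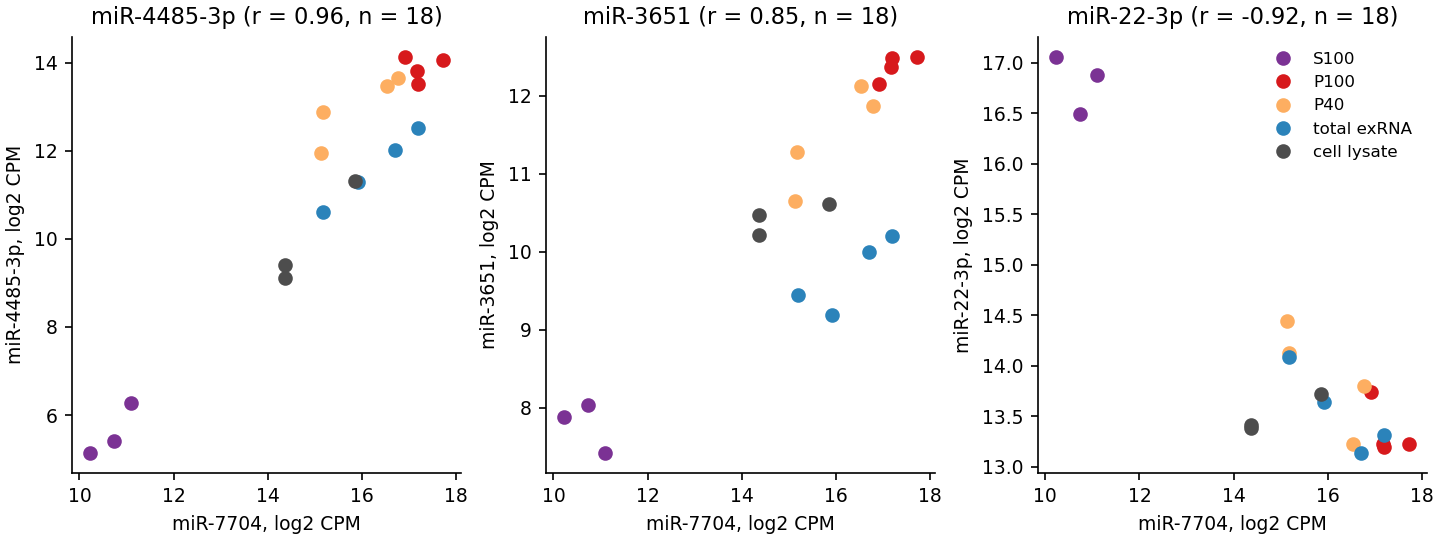
Log2 CPM of miR-4485-3p, miR-3651 and miR-22-3p against that of miR-7704 in 18 libraries, coloured by group, with Pearson r over all libraries. miR-4485-3p rises with miR-7704 over all libraries (r = 0.96) but not among the 4 P100 libraries, the total exRNA libraries of miR-3651 lie below the trend, and miR-22-3p is separated mainly by the 3 S100 libraries.

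Other miRNAs that share a feature with miR-7704 were read for the same order, in 3 lists. miRNAs of the HOX clusters (miR-10a, miR-10b, miR-196a, miR-196b and miR-615), which repress HOX messenger RNAs and lie near HOX genes, share its genomic setting. MIR10B lies 38431 bases from MIR7704. Of the 11 entries, 5 passed the filter on low counts, and counts and medians of each list describe those that passed. In P100 against lysate 0 were higher and 2 lower in edgeR's test at an adjusted p below 0.05 (median log2 fold change 0.51, against -0.10 over all 226 other miRNAs), where 16.7% of the 227 miRNAs were called higher and 20.7% lower. One of the 2 was miR-196a-5p (-1.59 ± 0.49, adjusted p = 0.0138). miR-10b-5p had a log2 fold change of 0.79 ± 0.66 (adjusted p = 0.358). In S100 against P100 0 were higher and 1 was lower, miR-10b-5p (-2.91 ± 0.71, adjusted p = 0.00131), with a median of -0.64 against -0.01 over all. In that comparison 28.6% of miRNAs were called higher and 31.3% lower. In S100 against lysate, where miR-7704 was also lower, 0 were higher and 3 lower (median -1.67, against -0.03 over all). There 32.2% of miRNAs were called higher and 30% lower. The list held 0.293% to 0.364% of counts in S100, 0.255% to 0.599% in P100, 0.324% to 0.414% in P40, 0.185% to 0.334% in total exRNA and 0.315% to 0.591% in lysate. The range of S100 overlapped that of each other group, whereas S100 shares of miR-7704 lay below those of every other group. miR-10a-5p and miR-10b-5p differ by 1 base, and their values are uncertain in that respect.

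The second list held 11 entries of GC-rich ribosomal type (miR-663a, miR-663b, miR-3648, miR-3687, miR-6724-5p, and both arms of miR-10396a, miR-10396b and miR-10401), several of which are annotated in ribosomal RNA repeats. Of the 9 that passed the filter, 0 were higher and 8 lower in S100 than in P100 (median log2 fold change -2.79, against -0.01 over all 226 other miRNAs). In that comparison 28.6% of miRNAs were called higher and 31.3% lower. In P100, 8 were higher and 0 lower than in lysate (median 6.67, or 6.32 with the miRNA absent from lysate at its bound of 3 counts, against -0.10). Over all miRNAs 16.7% were called higher and 20.7% lower there. Against P40, 4 were higher and 0 lower in P100 (median 1.55 against -0.18), where 2.2% of miRNAs were called higher and 2.64% lower. Unlike miR-7704, the list was also higher in S100 than in lysate, with 6 members higher and 0 lower (median 2.58 against -0.03), where 32.2% of miRNAs were called higher and 30% lower. The 9 were low in lysate, with mean log2 CPM from 4.91 (miR-663b, absent there) to 7.24 (miR-3648). They passed the filter through groups where they were higher, so finding 0 lower than in lysate was largely set by the filter. Members low in S100, such as miR-3648 (mean log2 CPM 7.12) and miR-663b (7.85), also passed through other groups. Finding 0 higher in S100 than in P100 was thus set in part by the filter as well.

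By library the ribosomal list held 0.323%, 0.610% and 0.426% of counts in S100 replicates 2 to 4, and 2.85%, 3.98%, 3.06% and 5.90% in P100 replicates 1 to 4. In P40 replicates 1 to 4 it held 1.74%, 1.03%, 1.12% and 1.08%, in total exRNA 2.19%, 1.03%, 3.43% and 6.76%, and in lysate 0.0828%, 0.0637% and 0.0364%. Total exRNA replicate 4 was the highest of all in this list but the third of 4 in miR-7704. miR-663a, for example, was lower in S100 than in P100 (-3.06 ± 0.80, adjusted p = 0.00257) and higher in P100 than in lysate (7.01 ± 1.01, adjusted p = 1.61e-05). Near-identical copies within this list may have exchanged reads.

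The third list held the 75 other mature miRNAs with at least 80% G and C in the reference table. Counted miRNAs without a sequence there, miR-3195 among them, could not enter it. Of the 75, 14 passed the filter. In S100 against P100 0 were higher and 12 lower (median -2.92, against -0.01 over all 226 other miRNAs), where 28.6% of miRNAs were called higher and 31.3% lower. The 2 of the 14 called neither higher nor lower, named after their values were seen, were miR-638 (-1.56, adjusted p = 0.113) and miR-4488 (1.17, adjusted p = 0.116). In P100 against lysate 11 were higher and 0 lower (median 6.08, or 5.63 with the 2 miRNAs absent from lysate at their bound, against -0.10), where 16.7% were called higher and 20.7% lower. In S100 against lysate, where miR-7704 was at -4.34, 9 were higher and 2 lower (median 3.13, or 2.53 at the bound, against -0.03), where 32.2% were called higher and 30% lower. Several members are also in the ribosomal list. As there, members low in lysate passed the filter through other groups, which limits what the counts against lysate can show. Members low in S100 did so too, such as miR-4497 (mean log2 CPM 5.45) and miR-3196 (6.27). This limits what 0 higher and 12 lower in S100 than in P100 can show. Across 198 other miRNAs with a sequence, GC content and the log2 fold change of S100 against P100 had a Pearson correlation of -0.207, given as a description. The Spearman correlation was -0.133. Most GC-rich miRNAs that passed the filter were thus lower in S100 than in P100, as miR-7704 was, and the part of base composition in its counts was not tested.

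When 1 miRNA holds a large share, the shares of all others are pressed down by it. Taking miR-7704 out of the counts multiplied every other share by 1.001 to 1.002 in S100, 1.13 to 1.23 in P100, 1.04 to 1.12 in P40, 1.04 to 1.17 in total exRNA and 1.02 to 1.05 in lysate. The largest visible effect was on miR-92a-3p. With miR-7704 removed it averaged 28.3% ± 2.13 in P100, against 24.1% ± 1.92 with miR-7704 kept (SD, n = 4). In lysate it averaged 29.8% ± 5.01 with miR-7704 removed and 28.9% ± 4.44 with it kept (n = 3). The gap of P100 to lysate was -1.50 percentage points after removal and -4.84 before it, and the groups overlapped both ways. The gap of S100 to P100 was -20.1 points after removal and -15.9 before it.

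One sign changed among the leading miRNAs. miR-372-3p, which shares its cluster with miR-373-3p, was 0.174 points lower in S100 than in P100 after removal (a gap of -0.174) and 0.292 points higher before it, with overlapping groups both ways. Overlap itself changed in 2 cases. miR-372-3p in P100 against lysate and miR-22-3p in total exRNA against lysate overlapped with miR-7704 kept and did not after removal, at gaps of 1.35 and 0.415 points. miR-320a-3p, a miRNA matured without Drosha, was above lysate in P100 by 1.94 points after removal and by 1.41 before. The 10 most abundant miRNAs of a library held 55.1% ± 2.41 of counts in P100 after removal and 60.2% ± 2.29 before. In S100 they held 56.3% ± 0.195 after removal and 56.2% ± 0.216 before.

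**Figure D4:**
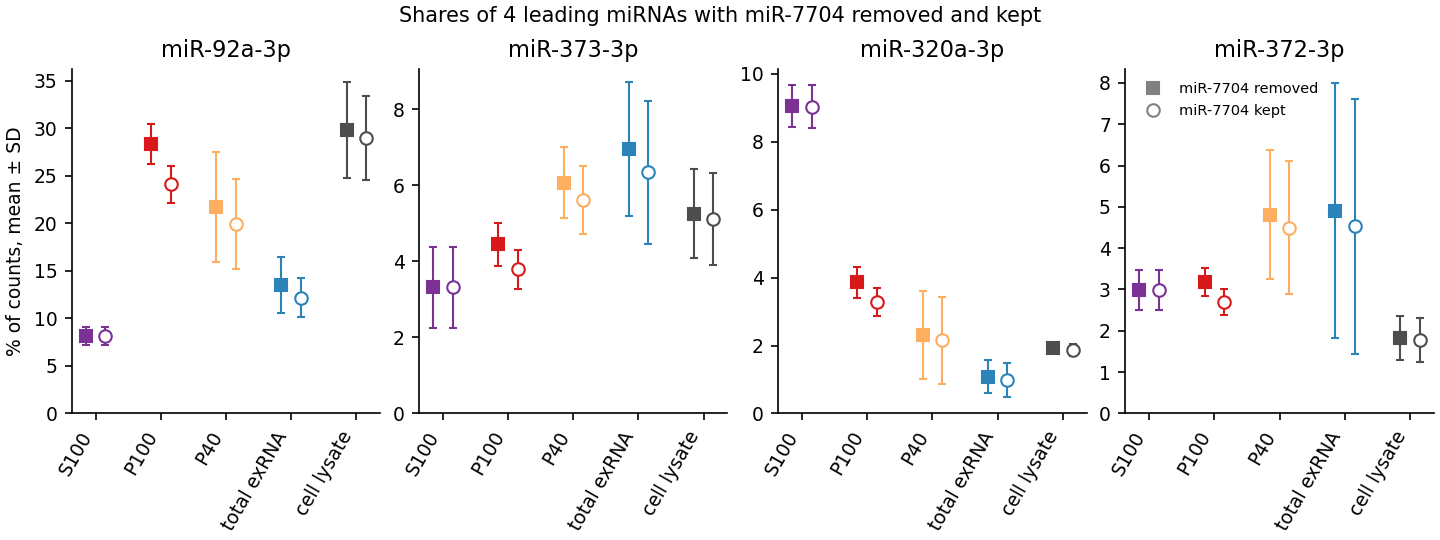
Shares of counts (mean ± SD, percent) of 4 leading miRNAs by group with miR-7704 removed (filled squares) and kept (open circles). In P100 miR-92a-3p stands at 28.3% with miR-7704 removed and 24.1% with it kept, while S100 values coincide.

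Removal also changed which other miRNAs were called different, at an adjusted p below 0.05 (edgeR, Benjamini-Hochberg). With library size as the only scaling, where a share enters directly, removal altered 90 calls over the 10 comparisons, 53 lost and 37 gained, against 868 calls with miR-7704 kept. The lost calls include some of miRNAs that no longer passed the filter on low counts after removal, which 226 other miRNAs passed before it and 224 after it. The median log2 fold change of other miRNAs moved by -0.23 in S100 against P100 and by 0.19 in P100 against lysate. In P100 against lysate 74 miRNAs were called after removal and 82 before, 68 of them the same. The higher calls numbered 45 after removal and 40 before, and the lower calls 29 and 42. In P100 against P40 13 were called after removal and 21 before, all 13 among the 21. Among the changed calls, miR-221-3p, a growth-promoting miRNA of many tumours, was higher in P100 than in lysate after removal (0.97 ± 0.31, adjusted p = 0.0207) with a value of 0.78 ± 0.33 before it (adjusted p = 0.0684). miR-130b-3p was lower before removal (-1.15 ± 0.38, adjusted p = 0.0221) with a value of -0.95 ± 0.38 after it (adjusted p = 0.0565).

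With TMM scaling the number of changed calls was similar, at 102 over the 10 comparisons, but the pattern was another. Of the 862 calls made with miR-7704 kept 65 were lost, again with miRNAs that no longer passed the filter among them, and 37 were gained. The median shift was largest in comparisons with S100, at 0.29 against P100, 0.28 against lysate, 0.27 against P40 and 0.19 against total exRNA, and ran opposite to that by library size. In P100 against lysate it was -0.01, with 84 calls after removal and 84 before, 81 of them the same. let-7b-5p, a let-7 miRNA that restrains growth genes, had a log2 fold change of 0.89 ± 0.33 in S100 against lysate after removal (adjusted p = 0.0226) and 0.62 ± 0.34 before it (adjusted p = 0.121). miR-31-5p had -1.07 ± 0.47 after removal (adjusted p = 0.0515) and -1.33 ± 0.48 before it (adjusted p = 0.0190).

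TMM measures each library against a reference library that it picks itself, and removal changed that pick to P100 replicate 4, against P40 replicate 3 with miR-7704 kept. With the reference library and the tested miRNAs held as they were, removal altered 5 calls, all lost, left 5 of 10 comparisons unaltered and moved the medians by -0.02 to 0.03. With miR-7704 kept and P100 replicate 4 as the reference library, the medians moved by -0.10 to 0.29, as they had with removal. Both of these fits were added after the data had been seen. Under TMM most of the altered calls were thus seen only where the reference library had changed as well.

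**Figure D5:**
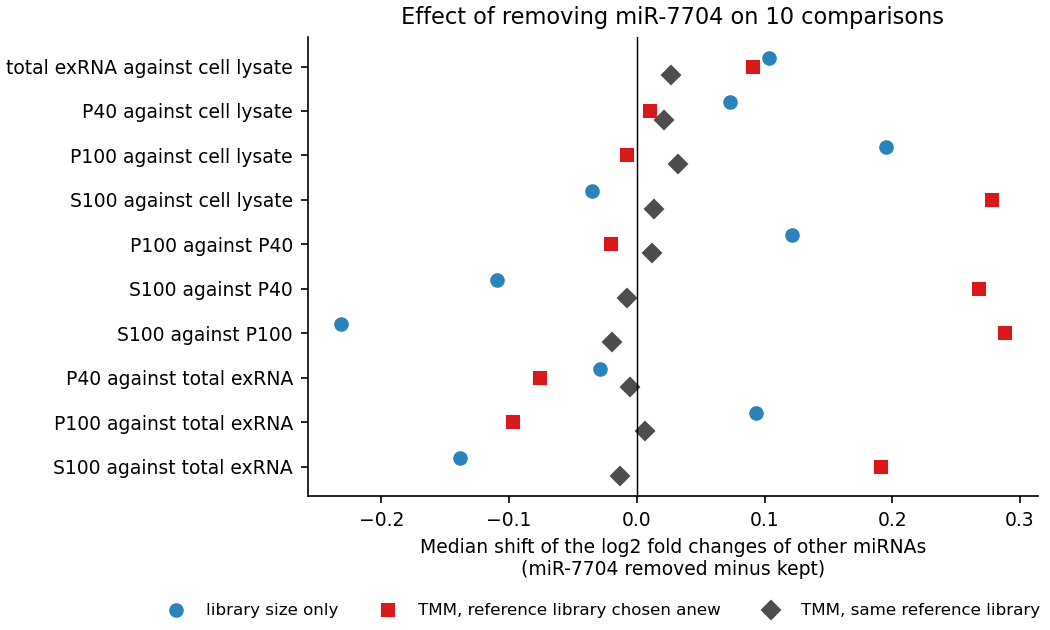
Median shift of the log2 fold changes of other miRNAs when miR-7704 was removed (removed minus kept), for 10 comparisons, with library size only (circles), with TMM and its reference library chosen anew (squares), and with TMM and the same reference library (diamonds). Diamonds lie within 0.03 of 0, circles reach -0.23 in S100 against P100, and squares reach 0.29 there.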

How the data were processed

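Small RNA libraries of 19 samples (RealSeq-AC kit, single reads of 50 bases) were deposited as raw counts per mature miRNA, with 1 file per library that lists only miRNAs with a count. The submitters' processing notes name GRCh38 as the genome and Bowtie2, FastQC and cutadapt 1.16 as tools. The alignment settings, filter, annotation release and treatment of reads with several matches are not given in the sources used here. No molecular identifiers are named, so intervals cover counting error only.

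Absence from a file was read as 0 counts. A library needed at least 100 detected miRNAs, which left out S100 replicate 1. Shares are counts over all counts of a library, with exact Clopper-Pearson 95% intervals. The 18 libraries (10017 to 225290 counts) were fitted in R 4.3.3 with edgeR 4.0.16: filterByExpr (minimum count 10, minimum total 15) kept 227 miRNAs with 98.5% to 99.1% of counts, libraries were scaled by TMM, and 1 robust quasi-likelihood model with a group term was fitted (common biological coefficient of variation 0.419). P-values were adjusted by Benjamini-Hochberg over 227 miRNAs, and calls are at an adjusted p below 0.05. SEs were computed from F, and a prior count of 2 entered log2 CPM. A bound is the value at 3 counts over the group. The fit was tested on simulated data.

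For removal, miR-7704 was deleted before library sizes, filter (224 miRNAs left) and TMM. Alternatives were library size only, DESeq2 1.42.0, no filter, only the 2 groups compared, the replicate number as a block, and leaving out each library. In the labels the batch and replicate number of a sample are equal, and same-numbered samples were taken as pairs. Over 32 pairs of the same number from different groups, deviations from group means had a mean correlation of -0.03 (-0.568 to 0.311, 7 over 0.1). Replicates of a group differed by at least 4.32 times their sampling noise (chi-square per degree of freedom), so none was taken as a duplicate.

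Sequences came from RefSeq tables of GRCh38.p14 (933 of 1043 counted miRNAs matched by name) and transcripts from the GENCODE annotation given with the genome. The miRNA and the lists were chosen with earlier results of these data known. Beside miR-7704, the text names the leading miRNA of each group, its neighbours in rank, the 5 most and 3 least alike miRNAs, the 3 most abundant others of a group, miRNAs whose call differed after removal, and at most 5 members of each list.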

Additional observations from a re-analysis of the deposited data

Results flagged for a closer look

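Shares of counts were checked within groups of 4 libraries for a library whose gap to its nearest neighbour took up most of the range of the group. Of 42 checks over miR-7704 and the leading miRNAs, 4 were past the 95% limit, where chance gives about 1 in 20. None concerned miR-7704. miR-378a-3p was low in P40 replicate 1, at 0.812% of counts. miR-21-5p was high in the same library, at 4.44%. miR-373-3p was high in total exRNA replicate 2, at 9.15%, and miR-372-3p of the same cluster was high there too, also at 9.15%. That library had the lowest share of miR-7704 in its group, 4.08%.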

How the results depend on the processing

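The mean share of miR-7704 moved by less than 1 SD in all 33 alternative values. Of 142 alternative log2 fold changes of miR-7704, 139 kept their sign and moved by less than the spread between replicates. P40 against total exRNA turned to 0.058 without total exRNA replicate 1 (-0.68 to 0.058 over libraries left out), S100 against lysate was -3.29 without lysate replicate 1 (-4.28 to -3.29), and S100 against P100 was -5.92 without the low-count filter. The cause was not tested. Of 162 alternative counts of other miRNAs called, 148 were within 1.5 times the count reported. In P100 against P40, 11 others were called, against 21 by library size only, 17 by DESeq2, 7 without the filter and 3 to 12 with a library left out. It was lowest, at 3, when P100 replicate 3 was dropped and also when P40 replicate 2 was, and it was 4 and 5 when P100 replicates 4 and 1 were. In P40 against total exRNA, 27 were called, against 44 by DESeq2, 17 without the filter, 14 with only those groups in the fit and 17 to 42 with a library left out. The count was 17 without P40 replicate 4 or total exRNA replicate 4, and 42 without total exRNA replicate 2. In P40 against lysate 61 were called, and 27 with only those groups in the fit. With the replicate number as a block, S100 against P100 was -6.44 and P100 against P40 1.27 for miR-7704, and no count of calls moved by over 1.5 times. By library size only, calls in total exRNA against lysate split into 46 higher and 19 lower, against 42 and 37 by TMM, in P40 against lysate into 46 and 19, against 31 and 30, and in P100 against P40 into 5 and 16, against 5 and 6. With 3 or 4 libraries a group, and 10017 counts in the shallowest, rare miRNAs could not be compared.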
